A study of Mus musculus with 16 samples.

Results

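The proteasome genes described here are the 50 mouse genes, of 47451 gene symbols in the count tables, whose symbols run from Psma to Psmg and go on with a digit. Pseudogene symbols that end in -ps were left out, and each gene was followed through the transcript with the highest mean count over all libraries. The 50 fall into 8 genes of the 20S alpha ring, 7 of the 20S beta ring, 4 inducible or tissue-restricted beta subunits, 9 of the 19S base, 8 of the 19S lid, 6 activators and inhibitors, 7 assembly factors and Psmc3ip. Psmc3ip matched by its letters alone: it is named for an interaction with Psmc3, is known from meiotic recombination and is not a subunit. Of the 50 genes, 46 had enough counts to be tested in both tables, and Psma8, Psmb9, Psmb11 and Psme2b did not.

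The study used translating ribosome affinity purification (TRAP) from mouse retina at postnatal day 60, in which an antibody to an HA tag pulls down ribosomes that carry the tagged protein RPL22, with the mRNA bound to them. In the first experiment, retinas of Opn4-Cre; Rpl22-HA mice (Rpl22HA) and of Opn4-Cre mice without the tag (untagged) each gave 2 HA immunoprecipitates (IP) and 2 inputs, the input being 1.5% of the lysate. In the second, HA IPs from 4 control mice (Opn4-Cre; Rpl22-HA) were set against HA IPs from 4 Brn3bcKO mice (Opn4-Cre; Rpl22-HA; Brn3bcKO-AP), in which Cre removes the transcription factor gene Brn3b (Pou4f2) from cells that have expressed Opn4. All 16 samples thus carry Opn4-Cre, which is active in intrinsically photosensitive retinal ganglion cells (ipRGCs, the ganglion cells that make melanopsin) and, per the study's methods, in a small group of cones. The retinas of an animal were combined, each group of the second experiment held 3 males and 1 female, and the libraries of the first are labelled as pooled male and female.

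The proteasome is the protease that degrades proteins tagged with ubiquitin. Its 20S core is a barrel of stacked rings, with alpha subunits at the ends that gate the entrance and beta subunits in the middle, of which PSMB5, PSMB6 and PSMB7 hold the active sites. The 19S particle caps the barrel: ATPases of its base unfold the substrate, and its lid, through PSMD14, takes off the ubiquitin chain. Under interferon, PSMB8, PSMB9 and PSMB10 replace the standard catalytic subunits to form the immunoproteasome. When proteasome activity falls in mammalian cells, the transcription factor NFE2L1 raises most subunit genes together, through the antioxidant response element in their promoters.

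Promoter sequence was shown for 3 members because the results turn on them. Psmb5 was the catalytic subunit with the lowest log2 fold change of Brn3bcKO over control IPs. Psmb6 was the most abundant member of the input per length, and Psme4 the regulator that went against most other members in the untagged IP. The stretches run 5′ to 3′ on the gene's strand, come from RefSeq on GRCm38.p6 and end before the transcript's start, at chr14:54618023-54618245 on the minus strand for Psmb5, chr11:70525107-70525356 on the plus strand for Psmb6 and chr11:30771525-30771725 on the plus strand for Psme4. Capitals mark matches to TGACNNNGC, the core of the antioxidant response element.
Psmb5: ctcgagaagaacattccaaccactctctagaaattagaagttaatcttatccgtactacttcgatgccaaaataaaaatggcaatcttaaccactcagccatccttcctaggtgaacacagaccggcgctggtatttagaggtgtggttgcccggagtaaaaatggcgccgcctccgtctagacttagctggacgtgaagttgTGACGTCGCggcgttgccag
Psmb6: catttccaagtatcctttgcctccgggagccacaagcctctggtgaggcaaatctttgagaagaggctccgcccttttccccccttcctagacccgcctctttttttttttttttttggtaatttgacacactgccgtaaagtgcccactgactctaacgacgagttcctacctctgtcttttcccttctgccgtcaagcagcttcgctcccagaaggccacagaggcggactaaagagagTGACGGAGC
Psme4: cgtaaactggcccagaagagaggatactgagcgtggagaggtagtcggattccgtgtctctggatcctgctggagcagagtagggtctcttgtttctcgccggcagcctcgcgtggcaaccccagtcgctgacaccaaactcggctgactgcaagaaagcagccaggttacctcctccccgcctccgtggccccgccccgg
TGACNNNGC was searched on both strands of the 250 bases before the start, for the 42 members that matched the RefSeq promoter table. It stood in 5 of the 42 (11.9%), namely Psmb5, Psmb6, Psmc6, Psmd12 and Psmd9, against 10.1% of 27025 promoters of the same length. CCAAT, searched the same way, stood in 14 of 42 (33.3%) against 34.5% of all promoters. Matches describe these letters in this window only.

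Libraries summed to between 2332612 and 14512132 counts in the first table and between 12994498 and 20350881 in the second, and the lowest total was that of untagged input replicate 1. A count of 0 allows up to 3 counts, and such floors cover counting error only. Markers bore out the labels: all 12 pan-RGC and 5 of 7 ipRGC markers were higher in the Rpl22HA IP than in its input. All 10 cone markers were higher too. All 9 rod markers and all 6 Muller glia markers were lower, but the untagged IP also had 8 of 9 and 6 of 6 lower. Their fall is thus not particular to tagged ribosomes. Tagged enrichment fell short of the untagged for 3 of 9 rod and 5 of 6 Muller glia markers, and exceeded it for 1 Muller glia marker. Brn3b itself stood at 36.8 to 64.2 CPM (counts scaled to library size, with TMM factors) in control IPs and at 18.8 to 34.0 CPM in Brn3bcKO IPs, groups that did not overlap (log2 fold change -0.83 ± 0.22 (SE), adjusted p = 0.0852 by edgeR's quasi-likelihood test). Counts of 4 Y-linked genes summed to at most 7 in the 4 untagged libraries and to 135 or more in the 4 Rpl22HA libraries, which goes against the label of pooled sexes in the untagged group. Tag and sex cannot be told apart in values that set these groups against each other. In bulk RNA, more cells of a type and more RNA per cell cannot be told apart.

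Summed over the 15 genes of the 20S rings, the Rpl22HA inputs held 816.5 and 855.6 CPM and the untagged inputs 809.5 and 865.4 CPM. The 17 genes of the 19S particle held 1222 and 1194 CPM in the Rpl22HA inputs. In the untagged inputs they held 980.9 CPM in replicate 1 and 1206 CPM in replicate 2. Per kb of transcript, the highest input levels were those of Psmb6 (112 ± 0.0926 CPM per kb, SD, n = 2), the caspase-like catalytic subunit, Psmc5 (88.0 ± 6.49), an ATPase of the base, and Psma7 (84.8 ± 3.24), an alpha subunit. Psmc5 and Psma7 did not differ beyond their spread. Among the 19S lid genes the input level ran from 13.3 ± 1.42 CPM per kb for Psmd13 to 52.2 ± 2.28 for Psmd8, although the lid holds its subunits in equal number.

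Among regulators and variants, Psme3, the nuclear activator PA28 gamma, led the activators with 16.7 ± 0.0930 CPM per kb in the Rpl22HA input, above the core gene Psma5 (13.5 ± 1.96). Psme4, the large activator PA200, held 1.20 ± 0.183 and Psmb8 2.10 ± 0.244. Psma8, the testis form of an alpha subunit, had between 0 and 6 counts in each of the 16 libraries, and Psmb11, the thymus-specific beta subunit, between 0 and 5. Psmb9 had between 0 and 18 counts a library and was followed through a retained-intron transcript. Psme2b, a near-identical copy of Psme2, had between 1 and 12 counts, and reads of these copies may be shared.

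**Figure D1:**
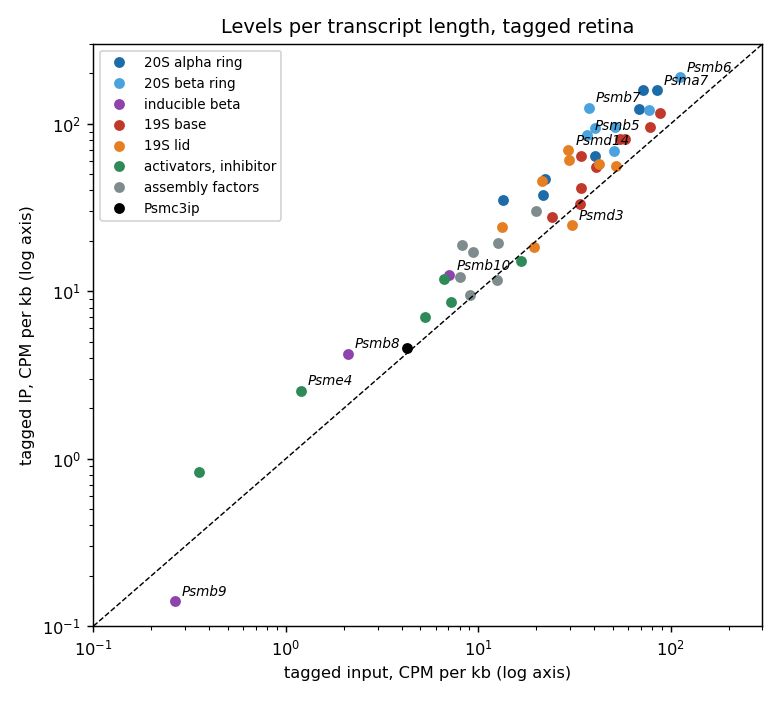
Mean level per kb of transcript (CPM per kb, log axes) of each proteasome gene in the 2 Rpl22HA inputs (x) and the 2 Rpl22HA IPs (y), coloured by class, with the dashed line at equal level. Points for the 20S rings lie above the line, Psmd1, Psmd3, Psmd11, Psme3, Psmg4 and Psmb9 below it, and genes under 0.2 CPM per kb in the input are not drawn.

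Standard catalytic subunits outweighed their inducible counterparts throughout. Per kb, Psmb5 made up 94.0% and 95.1% of the sum of Psmb5 and Psmb8 in the Rpl22HA inputs, and between 91.3% and 96.0% in all IPs of tagged retina. Psmb6 made up at least 99.7% of the sum with Psmb9 in the same libraries. Psmb7 made up 81.9% and 86.4% of the sum with Psmb10 in the Rpl22HA inputs and between 90.5% and 92.3% in the Rpl22HA, control and Brn3bcKO IPs, so inputs and IPs did not overlap for this pair.

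In the IP of tagged ribosomes over input, which asks which mRNAs were bound to ribosomes of the labelled cells, 29 of the 46 members tested were higher and 0 were lower at an adjusted p under 0.05. Among all 14099 genes tested, 26.9% were higher and 12.1% lower. Without Rpl22HA IP replicate 1 the count of members was 17, without Rpl22HA input replicate 1 it was 19, and with each other library left out it ran from 20 to 32. Libraries of the 2 groups did not overlap for 42 members, 39 higher and 3 lower, against 48.1% and 27.1% of all genes. Under the transcript selection of the study's methods, which keeps transcripts higher in the tagged than in the untagged IP and left 45 members, 18 were higher and 4 lower.

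The core led this enrichment. Of the 14 core genes tested, 13 were higher, 6 of them by more than 2-fold, a size that 14.4% of all genes reached, and their median log2 fold change was 0.90 (range 0.45 to 1.73) against 0.21 over all genes. Of the 17 genes of the 19S particle, 9 were higher, 3 by more than 2-fold, with a median of 0.43 (range -0.30 to 1.24). The activators and inhibitor had 2 of 5 higher, with a median of 0.40, and the assembly factors 4 of 7, with a median of 0.60. Upper quartile scaling moved the median of all genes from 0.21 to -0.03. Scaling shifts all genes together, so the distance of the core from that median, 0.69, does not depend on it, and under the selection of the methods the distance was 0.48. The 20S median exceeded the 19S median by 0.48, and by 0.40 to 0.52 over the 19 alternative settings. As transcripts of the core were shorter (median 1162.5 nt against 1636 nt), medians of all genes by length stand beside this: 0.42 for 1307 genes of 1000 to 1500 nt, where 6 core genes had a median of 0.99 and 4 of the 19S 0.52, and 0.30 for 1508 genes of 1500 to 2000 nt, where 8 genes of the 19S had 0.66. In longer classes the 19S genes lay below all genes: 4 of 2000 to 3000 nt had a median of 0.05 against 0.09, and the 1 over 3000 nt was at -0.02 against 0.18.

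Psmb7, the trypsin-like catalytic subunit, had the highest fold of all members. It stood at 149 and 141 CPM in the Rpl22HA IPs and at 44.3 and 42.9 CPM in the inputs (log2 fold change 1.73 ± 0.16 (SE), adjusted p = 2.82e-07). Psmb7 lies on chromosome 2 (mm10, 38588036 to 38644087, minus strand, 8 exons) and overlaps Nek6 on the other strand, and no source used here says whether counting used strand. Psmb5, the chymotrypsin-like subunit, read 75.7 and 77.7 CPM in the IPs against 32.1 and 33.9 CPM in the inputs (1.22 ± 0.21, adjusted p = 2.35e-04). Psmb6 read 157 and 146 CPM against 89.1 and 89.2 CPM (0.76 ± 0.15, adjusted p = 6.53e-04), and lost the call without Rpl22HA IP replicate 1 (0.53, adjusted p = 0.0562). All 3 standard catalytic genes thus rose, with no overlap of libraries.

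The inducible subunits were low and less certain. Psmb8 read 5.66 and 8.11 CPM in the Rpl22HA IPs against 3.70 and 3.14 CPM in the inputs (1.01 ± 0.39, adjusted p = 0.052), and Psmb10 read 17.7 and 15.0 CPM against 7.87 and 10.7 CPM (0.81 ± 0.22, adjusted p = 0.0088). Psmb8 passed the test in 7 of its 18 alternative settings and Psmb10 lost it in 6 of 19. Psmb9 was not tested: it had 4 and 6 counts in the IPs and 6 and 7 in the inputs.

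**Figure D2:**
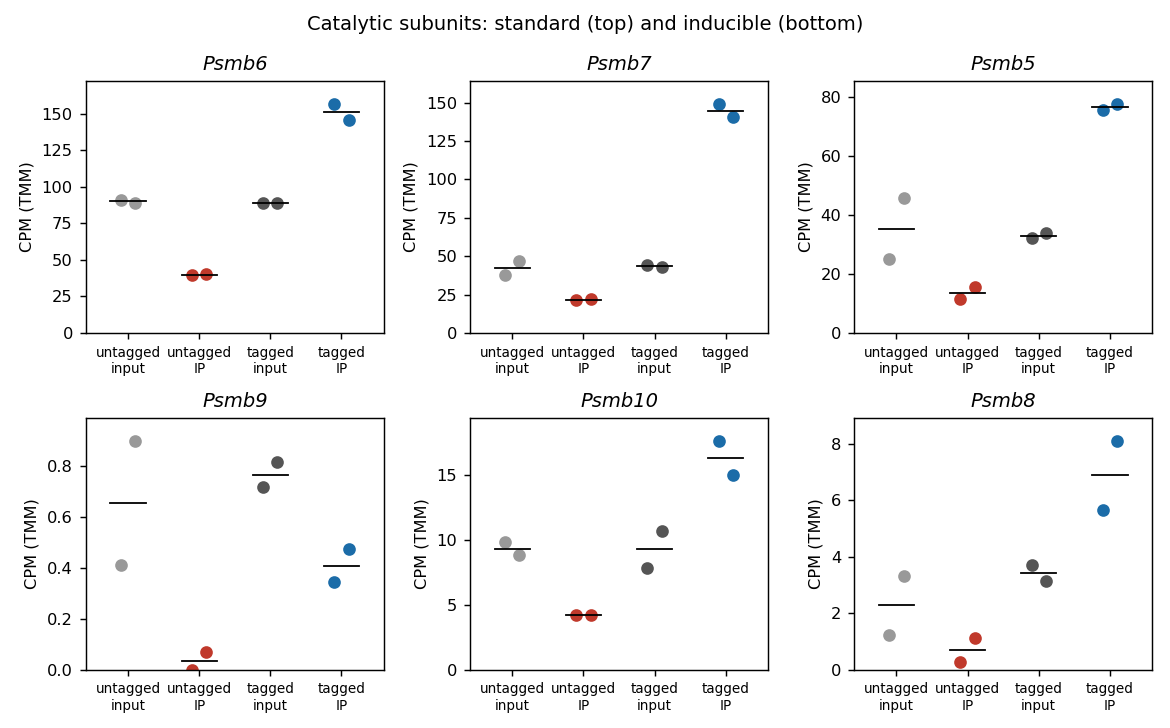
CPM of the 3 standard (top) and 3 inducible (bottom) catalytic subunits in each library of the first experiment, with points for libraries and bars for the mean of 2. In the tagged IP every subunit except Psmb9 lies above its input in both libraries, and in the untagged IP each lies below its input in both libraries, Psmb9 on at most 7 counts a library.

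All 7 alpha genes tested rose, from Psma4 (0.67 ± 0.16, adjusted p = 0.00292) to Psma5 (1.37 ± 0.18, adjusted p = 1.92e-05). Psma5 read 42.7 and 44.2 CPM in the Rpl22HA IPs against 15.0 and 18.5 CPM in the inputs, and Psma6 read 170 and 163 CPM against 75.8 and 74.2 CPM. Psmb1, a structural gene of the beta ring, rose by 1.22 ± 0.15 (adjusted p = 7.11e-06). Psma4 lost the call in 3 of 19 alternative settings (adjusted p up to 0.161): under the selection of the methods and without Rpl22HA IP or Rpl22HA input replicate 1. Psmb3 did not pass (0.45 ± 0.18, adjusted p = 0.0643), although its IPs at 54.6 and 51.5 CPM lay above its inputs at 38.8 and 39.2 CPM.

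The 19S particle was uneven. Psmd14, the deubiquitinase of the lid, read 111 and 103 CPM in the Rpl22HA IPs against 43.0 and 47.6 CPM in the inputs (1.24 ± 0.17, adjusted p = 1.78e-05). Psmd12 (1.08 ± 0.18), Psmd6 (1.04 ± 0.18) and Psmd13 (0.87 ± 0.19), also of the lid, rose too. Psmd3, a scaffold of the same lid, read 61.8 and 45.1 CPM against 65.4 and 66.1 CPM (-0.30 ± 0.23, adjusted p = 0.336), so its IPs lay below its inputs without passing the test. Of the base, the ATPase Psmc2 rose most (0.92 ± 0.16, adjusted p = 2.58e-04), while Psmd1, the large scaffold, was at -0.02 ± 0.16 (adjusted p = 0.927). Lid and base thus each held members near the level of the core and members near 0.

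Psme4 rose in the tagged IP (16.4 and 16.6 CPM against 6.92 and 8.60 CPM, 1.09 ± 0.20, adjusted p = 3.40e-04), as did Psme2, a subunit of the interferon-inducible activator PA28 (0.82 ± 0.25, adjusted p = 0.0164). Psme3 was at -0.13 ± 0.17 (adjusted p = 0.59) and Psmf1, the inhibitor PI31, at 0.25 ± 0.17 (adjusted p = 0.263). Of the assembly factors, Psmg3, a chaperone of the alpha ring, was highest (1.20 ± 0.24, adjusted p = 8.69e-04), and Psmd5, a chaperone of the base, followed (0.88 ± 0.16, adjusted p = 2.79e-04). For Psme2 and Psmg3 the untagged IP was also above its input, by 0.51 ± 0.29 and 0.51 ± 0.27 (adjusted p = 0.152 and 0.123). Their tagged enrichment did not exceed the untagged one in the same edgeR fit (difference 0.31 ± 0.38, adjusted p = 0.548, and 0.69 ± 0.36, adjusted p = 0.142).

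The untagged IP over its input, which measures what the antibody and beads brought down without a tagged ribosome, ran the other way. Here 30 of the 46 members were lower and 2, Psma3 and Psme4, were higher, against 25.5% of genes lower and 29.4% higher. Libraries did not overlap for 33 members lower and 3 higher, against 33.9% and 39.6% of all genes. Of the 14 core genes 12 were lower, with a median log2 fold change of -1.32 against 0.07 over all genes, and of the 19S particle 9 of 17 were lower, with a median of -0.50. Summed over the core rings, the untagged IPs held 406.2 and 422.5 CPM, below their inputs, and the Rpl22HA IPs 1681 and 1590 CPM, above theirs. By length, the median of all genes ran from -0.59 up to 1000 nt to 0.37 over 3000 nt.

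Psmd3 fell most, from 59.7 and 67.9 CPM in the untagged inputs to 16.2 and 7.75 CPM in the untagged IPs (-2.45 ± 0.26, adjusted p = 6.05e-07), and Psmb3 followed, from 31.5 and 35.5 CPM to 9.65 and 6.13 CPM (-2.12 ± 0.21, adjusted p = 3.12e-07). In the tagged IP these were the lowest members of the 19S particle and of the core. Psme4 went against them, from 8.59 and 8.08 CPM to 56.1 and 51.1 CPM (2.70 ± 0.21, adjusted p = 1.46e-08), a level above that of its tagged IP. Psma3 rose from 42.5 and 58.2 CPM to 86.2 and 85.0 CPM (0.74 ± 0.18, adjusted p = 0.00201). Of the 46 members, 17 were higher in the tagged and lower in the untagged comparison, 2 were higher in both, and 4, Psmc3, Psmc5, Psmc6 and Psmg1, passed in neither.

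**Figure D3:**
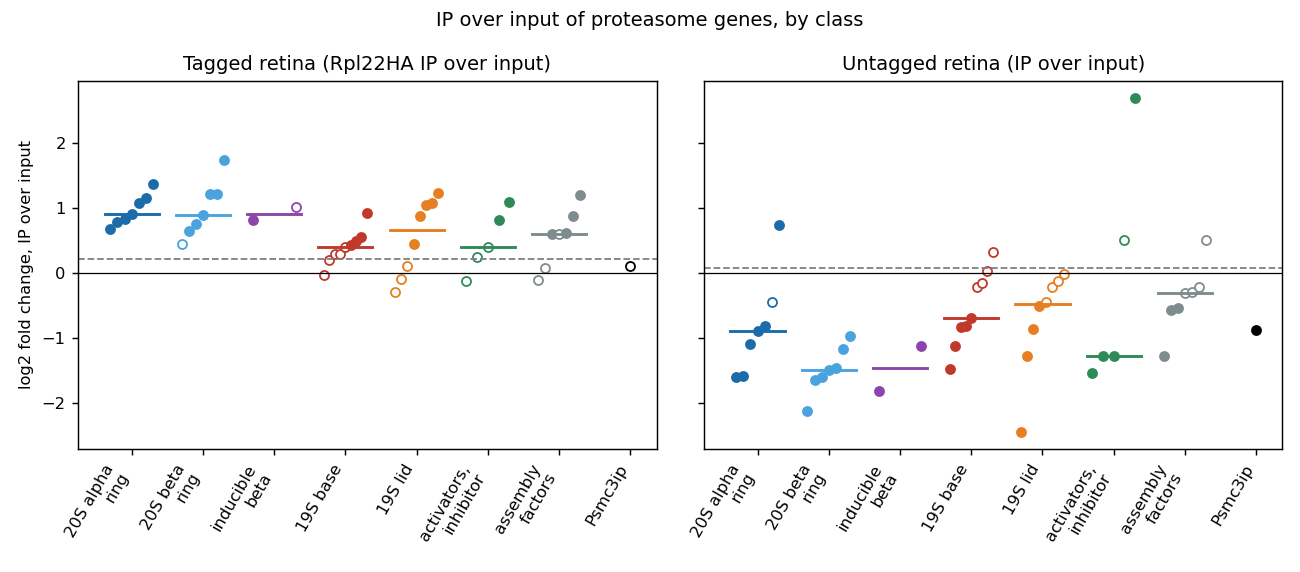
Log2 fold change of IP over input for the 46 members tested, by class, in tagged (left) and untagged (right) retina. Filled points passed an adjusted p of 0.05, coloured bars are class medians, and the dashed line is the median of all genes (0.21 and 0.07), with all core genes tested above it on the left and all but Psma3 (0.74) below it on the right.

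Set against each other in the same fit, the tagged enrichment exceeded the untagged for 35 of 46 members and fell short of it for 1, Psme4 (-1.61 ± 0.29, adjusted p = 3.01e-04), where 24.2% of genes were higher and 20.4% lower. The core had a median difference of 2.40 on the log2 scale, with 13 of 14 higher by more than 2-fold. The 19S particle was at 1.26, with 13 of 17 higher, 10 of them by more than 2-fold, a size that 19.8% of genes reached. The median over all genes was -0.05, and by length it ran from 0.57 between 1000 and 1500 nt to -0.37 over 3000 nt. Between 1000 and 1500 nt, 6 core genes had a median of 2.03 and 4 of the 19S 1.40. Psmb8 had the highest difference (2.82 ± 0.68, adjusted p = 0.00344) on 3 and 16 counts in the untagged IPs, and it ran from 1.68 to 4.09 with a library left out, losing the call without untagged input replicate 2 (1.68, adjusted p = 0.323). Psma6 (2.75 ± 0.23), Psmb7 (2.71 ± 0.23) and Psmb1 (2.70 ± 0.22) followed. Psma3 (0.05 ± 0.24, adjusted p = 0.884) and Psmc3 (-0.03 ± 0.25, adjusted p = 0.93) differed least. With a library left out, between 29 and 37 were higher, the most without untagged input replicate 1, the library of lowest depth. Under the selection of the methods 20 were higher and 3 lower. The different sex of the untagged libraries cannot be told apart from the tag here.

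Brn3bcKO IPs over control IPs asks what differs in the mRNA pulled down when Cre targets Brn3b. Brn3b mRNA itself still read 18.8 to 34.0 CPM in the Brn3bcKO IPs, and the study notes imperfect excision of the gene. No member was called in either direction by edgeR's quasi-likelihood test, where 0.905% of 13927 genes were lower and 0.682% higher. At an unadjusted p under 0.05, 5 members were lower and 1, Psmc3ip, was higher, against 8.01% and 9.76% of all genes. Libraries of the groups did not overlap for 7 members, all lower, which is 15.2% of members, against 5.01% of all genes lower and 5.46% higher. The estimates lay below 0 for 41 of 46 members (89.1%) and for 44.4% of all genes. Medians were -0.25 for the core, -0.23 for the 19S particle and -0.05 for the activators and inhibitor, against 0.05 over all genes, so core and 19S particle were 0.02 apart here. By length, the median of all genes ran from -0.08 between 1000 and 1500 nt to 0.12 over 3000 nt.

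Psmb5 was lowest. It read 76.1, 52.6, 64.8 and 50.8 CPM in the 4 control IPs and 46.5, 29.7, 37.5 and 34.2 CPM in the 4 Brn3bcKO IPs, with no overlap (-0.73 ± 0.19 (SE), adjusted p = 0.0776). Its adjusted p ran from 0.0128 to 0.23 over 20 alternative settings, and it passed 0.05 in 5 of them: DESeq2, no low count filter, the selection of the methods, the replicate block and edgeR's exact test. It failed with any library left out (0.0547 to 0.23). Psmb5 lies on chromosome 14 (mm10, 54614119 to 54618022, minus strand, 3 exons).

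The other catalytic genes were less far apart. Psmb7 read 147, 121, 169 and 167 CPM in control IPs and 143, 105, 118 and 99.9 CPM in Brn3bcKO IPs (-0.38 ± 0.18, adjusted p = 0.331), and the groups overlapped. Psmb6 read 131, 110, 118 and 126 CPM against 125, 84.4, 90.8 and 91.3 CPM (-0.31 ± 0.17, adjusted p = 0.405). Psmb8 was at -0.38 ± 0.33 and Psmb10 at -0.34 ± 0.19, with adjusted p of 0.634 and 0.42. Brn3bcKO replicate 1 lay highest of its group in Psmb5, Psmb6, Psmb7, Psmb8 and Psmb10.

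**Figure D4:**
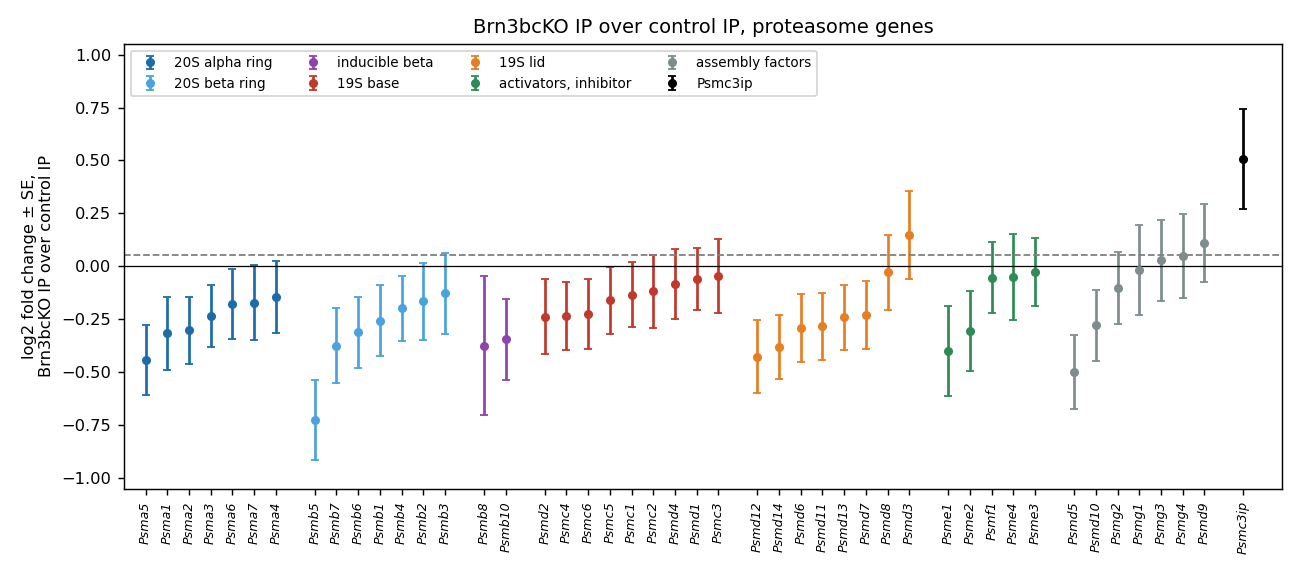
Log2 fold change ± SE of Brn3bcKO IP over control IP (4 libraries each) for the 46 members tested, ordered within class, with the median of all genes (0.05) dashed. All core genes and all activators lie below 0, Psmb5 lowest at -0.73, and Psmc3ip is highest at 0.51.

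Outside the core, Psmd5 came next (67.7, 71.9, 82.5 and 100.0 CPM in control IPs against 45.7, 59.8, 59.8 and 62.4 CPM, -0.50 ± 0.18, adjusted p = 0.186). Psma5, of the core's alpha ring, was at -0.44 ± 0.17 (adjusted p = 0.216), and Psmd12, of the lid, at -0.43 ± 0.17 (adjusted p = 0.257). Psmd14 read 101.9, 97.9, 107 and 119 CPM against 74.8, 79.5, 85.4 and 87.4 CPM (-0.38 ± 0.15, adjusted p = 0.247). Psmd5 and Psmd14 did not overlap between the groups. Neither did Psma5, by a narrow margin (lowest control 35.3 CPM, highest Brn3bcKO 35.1 CPM), while Psmd12 did. Psmc3ip, at 2.86 to 4.56 CPM in controls and 4.39 to 5.93 CPM in Brn3bcKO, was at 0.51 ± 0.24 (adjusted p = 0.326). The 95% intervals of 44 of the 46 members ended above a 2-fold drop, and the widest bounds were -1.19 for Psmb5 and 1.08 for Psmc3ip.

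**Figure D5:**
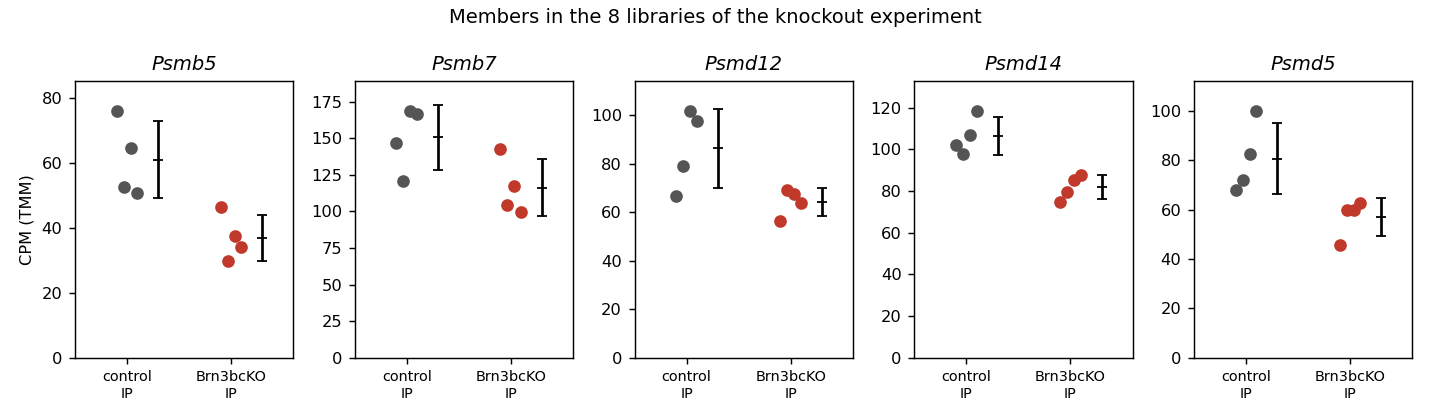
CPM of Psmb5, Psmb7, Psmd12, Psmd14 and Psmd5 in each control IP and each Brn3bcKO IP, with the mean and SD of 4 beside the points. Psmb5 runs from 50.8 to 76.1 in controls and from 29.7 to 46.5 in Brn3bcKO, and Psmb7 overlaps between the groups.

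Markers of cell types moved with the same libraries. The 10 cone markers summed to between 4060 and 7053 CPM in control IPs and between 8010 and 11340 CPM in Brn3bcKO IPs, with 5 of 10 called higher, and no cone marker was at 0. The 12 pan-RGC markers summed to between 3412 and 4932 CPM in controls and between 2072 and 2816 CPM in Brn3bcKO. Of the 12, 3 were called lower: Rbpms2, Sncg and Pou4f1. This list includes Brn3b itself, the gene that Cre targets. It also includes Rbpms2, which the study reports as bound by BRN3B and reduced in Brn3bcKO ipRGCs, so its fall is not a measure of cell number alone. The 9 rod markers summed to between 6108 and 8575 CPM and between 9104 and 14270 CPM, with 0 of 9 called. The 7 ipRGC markers summed to between 210.9 and 293.0 CPM and between 176.6 and 265.2 CPM, with 1 called higher and 1 called lower. The 5 amacrine and 6 Muller glia markers had median log2 fold changes of 0.50 and 0.53, with 0 called. The study counted fewer HA-labelled ganglion cells in Brn3bcKO retinas and no significant change in the density of HA-labelled cones. By direct label for melanopsin it found no change in ipRGC number, and it gives the HA count less weight as the more indirect measure. The study adjusted fold changes of ipRGC-enriched genes for the ratio of HA-labelled ipRGCs to HA-labelled cones, which was not done here. The part of these shifts in the values of proteasome genes was not tested. In the first experiment the cone markers rose with the pan-RGC markers in the tagged IP (7689 and 9496 CPM against 1093 and 1097 CPM), and the part of cones in the enrichment of the core was not tested either.

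Of 30 further genes of the pathway, 16 were higher and 2 lower in the tagged IP over input, where 26.9% and 12.1% of all genes were. In the untagged IP 4 were higher and 15 lower, against 29.4% and 25.5%, and 1 was lower in Brn3bcKO, against 0.905%. Shfm1 (Sem1), a small subunit of the lid, rose in the tagged IP by 0.85 on the log2 scale (adjusted p = 0.00362), Pomp, the assembly chaperone of the core, by 0.67 (adjusted p = 0.0056), and Usp14, a deubiquitinase of the 19S particle, by 1.15 (adjusted p = 8.95e-05). Nfe2l1 rose by 0.69 (adjusted p = 0.00288), while Adrm1, a ubiquitin receptor of the base, was at 0.20 (adjusted p = 0.472). In Brn3bcKO, Uchl1, a neuronal ubiquitin hydrolase, was the called gene (-0.81, adjusted p = 0.0432), and Nfe2l1 was at -0.22 (adjusted p = 0.551). Uchl1 was also highest of the 30 in the tagged IP (2.76).

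Some genes of antigen processing, in which the immunoproteasome takes part, were read in the tagged IP over input. The class I genes H2-D1 (1.43, adjusted p = 7.9e-06) and H2-K1 (0.54, adjusted p = 0.0304) rose, and B2m, the light chain of class I, fell by 1.61 on the log2 scale (adjusted p = 0.00106). The peptide transporter genes Tap1 and Tap2, Tapbp and Irf1 did not pass the test, and Nlrc5 had too few counts for it. In Brn3bcKO H2-D1, H2-K1 and B2m were at -0.22, 0.05 and 0.26, with adjusted p of 0.579, 0.933 and 0.789.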

How the data were processed

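The values were the raw counts per Ensembl transcript that the authors deposited, whole numbers with no normalization, in 2 tables of 8 libraries. Per the methods, these came from Smart-seq3 libraries with paired reads of 37 bp, mapped to the mm10 genome by the pipeline of that protocol; the annotation release and the handling of strand are not given in the sources used here. Of 117860 transcripts, 116747 matched GENCODE M21, which gave positions. Transcripts of a gene can share reads, so they were not summed. Members numbered 1 to 15 transcript rows each, 241 in all. The transcript used is not protein-coding for Psmb9, Psme1 and Psmc5.

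Each table was fitted whole with edgeR 4.0.16 in R 4.3.3 (filterByExpr, TMM, glmQLFit and glmQLFTest with the group as factor, 4 and 6 residual degrees of freedom), with Benjamini-Hochberg adjustment across the 45189 and 43975 transcripts that passed the filter. Calls were made at an adjusted p under 0.05. A gene's background is the same count over all genes, each with its most abundant transcript. CPM are scaled by TMM. The tests were checked on simulated data. Groups came from the labels, and all samples were used. Precision follows depth, and the 2 replicates a group of the first table limit it most.

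Members, lists and classes were chosen with earlier results of these data known. Full values are given for the 6 catalytic genes, for members with the smallest p among those called, and for the extremes of each class. Alternatives were DESeq2 1.42.0, other scaling and filters, the transcript selection of the methods, other transcripts, edgeR's exact test, sex as covariate, each replicate left out, and the replicate number as a block. IP and input of the same number come from the same lysate, so in the first experiment the numbers pair them by lysate. Their deviations from group means correlated at 0.02 and 0.07, and the main fit left this pairing out. Promoters came from RefSeq (GRCm38.p6), where 42 of 50 members matched. Some results of the antigen processing list are not reported here.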

Additional observations from a re-analysis of the deposited data

Results flagged for a closer look

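In Brn3bcKO replicate 1, Psmc3 stood apart from the other 3 libraries of its group, at 141 CPM with the nearest at 105 CPM (Dixon's ratio 0.948). In the same library Psmd5 was low, at 45.7 CPM with the nearest at 59.8 CPM (0.842). Chance alone singles out about 1 in 20 groups by this measure, which was run in both groups on each member named for Brn3bcKO. Flags in a search of this size can thus arise by chance.

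For 19 named members the enrichment in the tagged IP differed from that in the untagged IP by the test of the difference itself (edgeR, adjusted p under 0.05). Members were named here partly for a small p in this same test, so the count of 19 is largely set by that choice. Over all 46 members tested, 35 were higher and 1 lower, where 24.2% and 20.4% of all genes were. On the log2 scale the differences in the core were 2.67 for Psmb5, 1.94 for Psmb6, 2.71 for Psmb7, 2.70 for Psmb1, 2.55 for Psmb2, 2.56 for Psmb3, 2.25 for Psmb4, 2.67 for Psma2, 1.77 for Psma4, 2.75 for Psma6 and 1.80 for Psma7. They were 2.82 for Psmb8 and 1.93 for Psmb10 among the inducible subunits, 1.75 for Psmc2, 2.15 for Psmd3 and 0.57 for Psmd7 in the 19S particle, 1.94 for Psme1, 1.46 for Psmd5, and -1.61 for Psme4, the member in the opposite direction. Psmd7 was at the edge of the threshold (adjusted p = 0.0496): over 18 alternative settings it lost the call in 14 and reversed in 1, with adjusted p up to 0.336. Psmb8 rested on 3 and 16 counts in the untagged IPs, and ran from 1.68 to 4.09 with a library left out (adjusted p up to 0.323). Psmd5 lost the call in 1 of 18 settings (adjusted p = 0.0954).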

How the results depend on the processing

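Leaving out a replicate gave 17 to 32 members higher and 0 to 1 lower in the tagged IP over input, 2 to 4 higher in the untagged IP, and in these libraries the lone sample was assumed to vary like the other groups. Medians then ran, for the tagged IP, from 0.66 to 0.94 (core), 0.20 to 0.48 (19S) and 0.11 to 0.43 (activators and inhibitor), for the untagged IP from -1.39 to -1.08, -0.70 to -0.31 and -1.35 to -0.95, and for the difference from 2.08 to 2.45, 0.97 to 1.33 and 0.82 to 1.36. Upper quartile scaling gave medians of 0.66, 0.19 and 0.16 in the tagged IP, -1.47, -0.65 and -1.42 in the untagged IP, and 2.31 for the core's difference. In the tagged IP, the core and the regulators were at 0.80 and 0.29 with DESeq2, 0.79 and 0.29 with RLE factors, 0.80 and 0.30 with total counts, and 0.79 and 0.50 without a filter. Without a filter the untagged medians were -1.45 for the core and -0.38 for the regulators, the regulators' difference was 0.63 and their Brn3bcKO median -0.19. At a mean count of at least 50 the core was at 0.83 in the tagged IP and 2.32 in the difference. With the Rpl22HA libraries alone, 1 member was lower and the medians were 0.72, 0.25 and 0.22.

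The selection of the methods, which by construction tests fewer transcripts and removes those high in the untagged IP, moved most values. In the tagged IP 18 members were higher and 4 lower, with medians of 0.52, 0.05 and -0.05, the last reversed. In the untagged IP 8 were higher and 17 lower, with medians of -0.74, 0.07 (reversed) and -0.70, and Psmd12 moved from -0.02 to 0.55. In the difference 20 were higher and 3 lower, with medians of 1.44, 0.30 and 0.38, and Psmd7 (-0.39) and Psma3 (-0.90) reversed. The 19S median in Brn3bcKO was -0.11. Apart from the construction of this selection, the cause of these shifts was not tested.

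In Brn3bcKO, 1 member, Psmb5, was called lower with DESeq2, without a filter, under the selection, with edgeR's exact test and with the replicate block. In the second experiment no label says whether the replicate numbers pair samples. Same-numbered deviations correlated at 0.32, 0.17, 0.02 and -0.02, and differently numbered ones between -0.22 and 0.11. Over all genes the block gave 331 higher and 321 lower, against 95 and 126 without it. Whether same-numbered samples share a litter or a batch was not tested. With the lysate as a replicate block in the first, 32 members were higher in the tagged IP and no other count moved. Named genes kept their direction in 1584 of 1618 comparisons with an alternative. The others were near 0 or under the selection. Psma3 in the difference was at -0.01 with DESeq2 and with RLE factors, -0.04 with upper quartile factors, -0.05 without a filter and -0.03 at a mean count of at least 50. Psmc3ip in the tagged IP was at -0.13 with upper quartile factors, -0.27 under the selection and -0.07 with the Rpl22HA libraries alone, and Psmd12 in the untagged IP at 0.01 with the lysate as a block. Under the selection Psmd9 in the difference was at -0.35, and in Brn3bcKO Psmc3 was at 0.08 and Psme3 at 0.09. With a replicate left out, these ran from -0.24 to 0.26 (Psma3) and -0.34 to 0.14 (Psmc3) in the difference, from -0.09 to 0.36 (Psmc3ip) and -0.31 to 0.02 (Psmd1) in the tagged IP, from -0.25 to 0.33 (Psmd12) in the untagged IP, and in Brn3bcKO from -0.19 to 0.02 (Psmc3), -0.10 to 0.03 (Psme3) and -0.03 to 0.29 (Psmd3). Groups of 2, and counts under 20 for Psmb9, Psma8, Psmb11 and Psme2b, limit what can be seen.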

Other observations

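Psma3 was spread over 9 transcripts, and its retained-intron transcripts were high in the untagged IP. ENSMUST00000161041 had 394 and 526 counts in the untagged IPs, 3 and 25 in the untagged inputs, and 78 and 108 in the Rpl22HA IPs (untagged log2 fold change 3.81 ± 0.31, adjusted p = 3.02e-08 by edgeR). ENSMUST00000210966, a retained-intron transcript of Psma1, had 169 and 323 counts in the untagged IPs and 0 in both inputs, while the main transcript of Psma1 fell by 0.82. ENSMUST00000213080 of Psmd7 had 112 and 148 counts against 5 and 4.

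These were exceptions among the members. Of 70 retained-intron transcripts of 28 members, 7 were higher and 36 lower in the untagged IP, with a median log2 fold change of -0.83, where 35.9% of all 7242 retained-intron transcripts were higher, 17.3% were lower and their median was 0.40. In the tagged IP 26 of the 70 were higher and 0 lower, with a median of 0.76, against 20.4% higher, 7.86% lower and a median of 0.27.

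Transcripts of 4 pseudogenes left out by the rule held few counts. Summed over 8 libraries, Psmb7-ps2 had 15 and 41, Psmb5-ps 6 and 38, Psmb6-ps2 2 and 13, and Psmb6-ps 2 and 7 in the 2 tables.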
